A study of Mus musculus with 8 samples.

Results

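Claudins and occludin are the membrane proteins that seal the gap between neighbouring cells at tight junctions. The genes described here are Cldn1, Cldn2, Cldn3, Cldn5, Cldn10, Cldn11, Cldn12 and Ocln, 8 of the 24421 genes counted in the hippocampus of young mice. They are tight junction genes of brain vessels, choroid plexus, arachnoid and myelin. They were chosen by name with earlier measurements of these libraries in view, namely their levels in the 4 groups and a lower Cldn11 count in IUGR libraries at postnatal day 3. The levels, all values at that age and all differences from that age are therefore a description and support nothing about the choice. Of 34 genes whose symbol starts with Cldn, 7 are on the list, and all 8 listed genes passed the expression filter.

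Claudins line up in strands between cells and set which ions and molecules can pass, and each barrier of the brain uses its own set. Cldn5 is the main claudin of the blood-brain barrier, which the endothelial cells of brain vessels form. Cldn1, Cldn2 and Cldn3 belong to the epithelium of the choroid plexus, the tissue that secretes cerebrospinal fluid, and Cldn2 forms a pore for cations and water. Cldn11 seals the spaces of the myelin sheath and is also a claudin of the arachnoid, the barrier layer of the meninges. Ocln, the gene of occludin, is a strand protein of endothelial and epithelial barriers alike, Cldn10 forms ion-selective pores in epithelia and is transcribed in astrocytes, and Cldn12 is found in many cell types.

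The tissue came from wildtype C57BL/6J mice labelled male. IUGR mice (intrauterine growth retardation) were offspring of dams injected with dexamethasone, a synthetic glucocorticoid, at 1 mg/kg per day for 5 days from 14.5 days post coitum. NS mice were offspring of dams that received normal saline. The tissue was collected on postnatal day 3 or in week 8, and each of the 4 groups had 2 libraries, depleted of ribosomal RNA. The labels do not say whether the 2 libraries of a group came from separate litters or from pooled animals, so p-values measure only the spread between these libraries.

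Total counts ranged from 13030277 to 18993050 per library, and 3 counts, the limit that a count of 0 allows, were 0.158 to 0.23 CPM, the count per 1000000 counts of the library. The libraries of a group differed in ways the groups do not explain. In neonates, Xist, which female cells transcribe from their silenced X chromosome, had 81 and 5130 counts in IUGR and 4 and 4998 in NS (replicates 1 and 2). The sum of 4 genes of the Y chromosome was 5364 and 74 in IUGR and 3783 and 34 in NS, so both replicate 2 libraries of that age went against the label male. At week 8 the noncoding RNA Rpph1 took 6.49% of the counts in IUGR replicate 1 and 7.69% in NS replicate 1, and had 2 and 0 counts in their replicate 2. Summed hippocampal neuron markers, the check of the tissue, were present in every library, with 937 to 1080 CPM in IUGR and 1020 to 1080 CPM in NS at postnatal day 3. At week 8 they were 1900 CPM in IUGR replicate 1 and 1790 CPM in NS replicate 1, and 7090 and 7740 CPM in their replicate 2. That rise rests largely on Camk2a, with 762 and 682 CPM in replicate 1 and 4850 and 5320 CPM in replicate 2. Grin2b went the other way, from 316 and 277 CPM to 78.6 and 77.4 CPM, as did Zbtb20, so the sum does not measure the neuronal share. Results are therefore also given between libraries of the same replicate number. In such tissue libraries, fewer cells of a type and less RNA per cell cannot be told apart.

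Sequence upstream of 4 of these genes is shown because they stand for the barriers compared below: Cldn1 and Cldn2 of the choroid plexus, Cldn5 of vessels, and Cldn11 of myelin and arachnoid. Each is the 200 bases before a start annotated by RefSeq in GRCm38.p6, written 5′ to 3′ on the gene's strand. They lie at chr16:26371840-26372039 (minus strand), chrX:139800608-139800807 (plus), chr16:18776647-18776846 (plus) and chr3:31149720-31149919 (plus). Capitals mark matches to 4 motifs on either strand. The half-site of the glucocorticoid receptor was searched as AGAACA. The letters GGGCGG stood for the GC box that Sp1-type factors bind. A TATA box was searched as TATAAA, and the Snail-type E-box was searched as CACCTG.
Cldn1: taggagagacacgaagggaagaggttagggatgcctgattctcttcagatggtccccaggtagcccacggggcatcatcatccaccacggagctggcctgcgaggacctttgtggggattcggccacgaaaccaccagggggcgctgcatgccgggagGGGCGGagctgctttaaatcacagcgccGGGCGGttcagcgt
Cldn2: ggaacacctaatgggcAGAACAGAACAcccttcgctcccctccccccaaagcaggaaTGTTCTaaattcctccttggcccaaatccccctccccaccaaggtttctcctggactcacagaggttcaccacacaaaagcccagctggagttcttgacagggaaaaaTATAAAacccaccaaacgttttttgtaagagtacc
Cldn5: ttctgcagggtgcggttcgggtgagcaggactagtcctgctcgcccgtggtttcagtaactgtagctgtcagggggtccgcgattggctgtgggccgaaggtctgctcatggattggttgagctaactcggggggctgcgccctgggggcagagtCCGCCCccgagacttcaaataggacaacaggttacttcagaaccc
Cldn11: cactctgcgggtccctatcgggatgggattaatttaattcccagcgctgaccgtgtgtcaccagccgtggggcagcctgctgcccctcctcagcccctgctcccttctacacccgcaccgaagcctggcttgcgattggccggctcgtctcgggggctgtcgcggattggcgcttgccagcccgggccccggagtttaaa

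The Cldn2 window held 3 AGAACA matches, at -184 and -179, which overlap by 1 base, and at -143 on the opposite strand, and a TATA box at -35, counted from the annotated start. At least 1 AGAACA match stood in 12.9% of 32851 windows of this length and at least 3 stood in 0.125%, and TATAAA stood in 9.96%. Cldn1 had GC boxes at -42 and -14, Cldn5 had one at -45, and a GC box stood in 31% of windows. The Cldn11 window held none of the 4 motifs. Its GC content was 65%, against 50% for Cldn2 and a median of 53% over all windows, and it held 16 CpG dinucleotides, against 2 for Cldn2 and a median of 5. These matches describe letters, not binding. In the GENCODE M21 annotation of the same build, the genes lie at chr16:26356642-26371841 (Cldn1), chr16:18776847-18778262 (Cldn5), chr14:118787908-118875489 (Cldn10), chr3:31149920-31164324 (Cldn11), chr5:5489537-5514958 (Cldn12) and chr13:100496507-100552718 (Ocln).

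**Figure D1:**
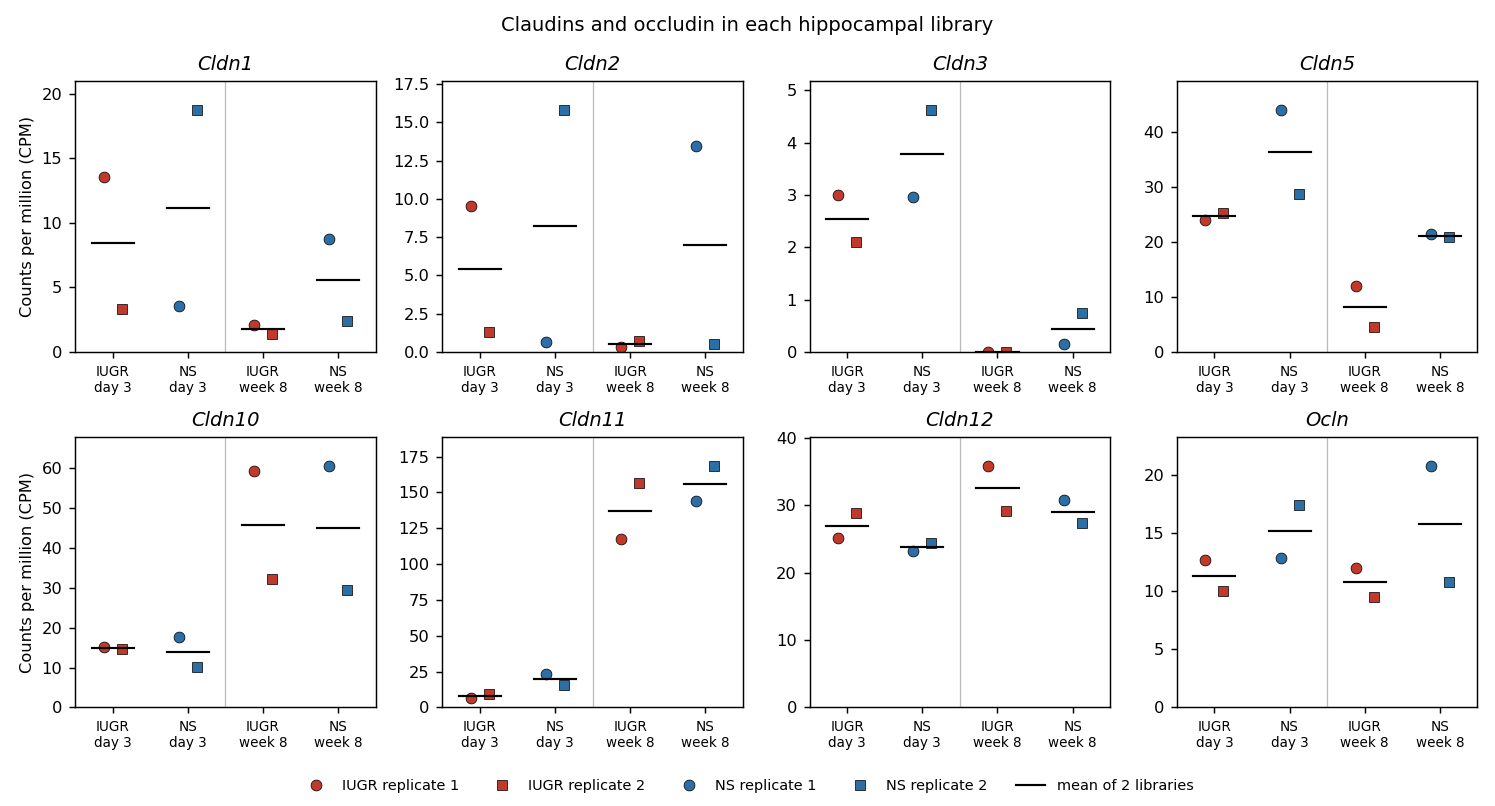
CPM (y axis, from 0, one scale per gene) of the 8 genes in each library, with IUGR left of NS at postnatal day 3 and at week 8; circles are replicate 1, squares replicate 2 and lines the mean of 2 libraries. Cldn1 and Cldn2 spread widely within groups, Cldn5 lay lower in both IUGR libraries at each age, and Cldn11 was far higher at week 8.

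Across the 8 genes, no IUGR against NS difference passed an adjusted p of 0.05 in edgeR's quasi-likelihood test, at either age. That test called 0 of 15999 genes at postnatal day 3 (0%) and 0 at week 8 (0%). At an unadjusted p under 0.05 it had 96 genes (0.6%) at postnatal day 3, among them Cldn11. At week 8 it had 161 (1.01%), among them Cldn3 and Cldn5. These shares are under what that threshold passes when no gene differs, so 0 calls do not show that no gene differs. With the replicate number as a block edgeR had 495 and 802 such genes, and on postnatal day 3 alone it had 839. DESeq2 on all libraries called 0 and 1 genes, with 129 and 210 at an unadjusted p under 0.05. At each age 6 of the 8 genes had a lower fitted level in IUGR. Their median log2 fold change was -0.49 at postnatal day 3 and -0.88 at week 8, against 0.01 and 0.02 over all genes tested.

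Groups that did not overlap were common among all genes. At postnatal day 3 both IUGR libraries were below both NS libraries for Cldn5, Cldn11 and Ocln, as for 16.6% of all genes tested, and above them for Cldn12, as for 19.7%. At week 8 both were below for Cldn1, Cldn3 and Cldn5, as for 9.01%, and above for none of the 8, as for 4.08%. With library sizes scaled by TMM, edgeR's correction for a few abundant genes, the week 8 split over all genes was 6.48% below and 7.14% above. Cldn5 was the gene of the list that was below at both ages.

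Cldn5, the vessel claudin, was lower in IUGR libraries at both ages, with the larger fitted difference at week 8. At postnatal day 3 it had 24.0 and 25.4 CPM in IUGR libraries, against 44.0 and 28.8 CPM in NS libraries. The IUGR pair was close together and lay just under the lower NS library. The nearest libraries had counting intervals of 23.1 to 27.8 CPM in IUGR and 26.3 to 31.4 CPM in NS, which overlap. Week 8 libraries had 12.04 and 4.46 CPM in IUGR, against 21.5 and 20.8 CPM in NS. There the NS pair was tight, and IUGR replicate 2 was the lowest of all 8 libraries.

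Cldn5 had a log2 fold change of -0.56 ± 0.45 (SE) at postnatal day 3 and -1.28 ± 0.46 at week 8 (edgeR, adjusted p = 1 for both, unadjusted p = 0.256 and 0.029). Without IUGR replicate 2 the week 8 value was -0.74, and without IUGR replicate 1 it was -2.18. With all libraries and the replicate number as a block, the values were -0.53 ± 0.32 at postnatal day 3 and -1.41 ± 0.34 at week 8 (edgeR, unadjusted p = 0.137 and 0.00413). Neither was called, with an adjusted p of 0.847 at week 8 (edgeR). Between libraries of the same number, the log2 ratio of IUGR over NS was -0.87 and -0.18 at postnatal day 3 and -0.84 and -2.23 at week 8. All 4 ratios were below 0, which follows from groups that did not overlap and is no further check. The change in the IUGR effect between the ages was -0.72 ± 0.64 (edgeR interaction, adjusted p = 1).

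Other endothelial genes were lower in IUGR libraries beside Cldn5. The summed CPM of 12 endothelial markers was 74.1 to 76.1 in IUGR libraries, against 104 to 113 in NS libraries at postnatal day 3. At week 8 it was 82.3 to 90.4 in IUGR libraries, against 155 to 162 in NS libraries. Of the 12, 11 were lower in IUGR at each age, with a median log2 fold change of -0.45 at postnatal day 3 and -0.85 at week 8, none of them called by edgeR. No marker of this list was at 0 in a library. Cldn5 counts were 31.6% and 34.2% of that sum in IUGR libraries, against 39% and 27.8% in NS libraries at postnatal day 3. At week 8 they were 14.6% and 4.93% in IUGR libraries, against 13.8% and 12.9% in NS libraries. Relative to these markers, IUGR and NS overlapped at both ages, and IUGR replicate 2 of week 8 stood below the others. The part of the endothelial share in the Cldn5 difference was not tested.

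Ocln, the occludin gene, averaged 11.3 ± 1.89 CPM in IUGR libraries and 15.1 ± 3.22 CPM in NS libraries at postnatal day 3, and 10.7 ± 1.73 and 15.8 ± 7.07 CPM at week 8 (SD, n = 2 each). Ocln had 12.6 and 9.98 CPM in IUGR libraries, against 12.9 and 17.4 CPM in NS libraries at postnatal day 3. There the groups were apart by a margin within counting error. The nearest libraries had counting intervals of 11 to 14.4 CPM in IUGR and 11.1 to 14.8 CPM in NS, which overlap. By week 8 it had 11.97 and 9.53 CPM in IUGR libraries, against 20.8 and 10.8 CPM in NS libraries, and the groups overlapped. Ocln had a log2 fold change of -0.42 ± 0.37 at postnatal day 3 and -0.47 ± 0.37 at week 8 (edgeR, adjusted p = 1 for both). Without NS replicate 1, the week 8 value was 0.05. The 2 NS libraries with the highest Ocln, replicate 2 of postnatal day 3 and replicate 1 of week 8, were the 2 with the highest sum of choroid plexus markers. IUGR replicate 1 of postnatal day 3 was also rich in these markers, with 3280 CPM, but had 12.6 CPM of Ocln. NS replicate 1 of that age had 12.9 CPM of Ocln with 96.6 CPM of markers.

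**Figure D2:**
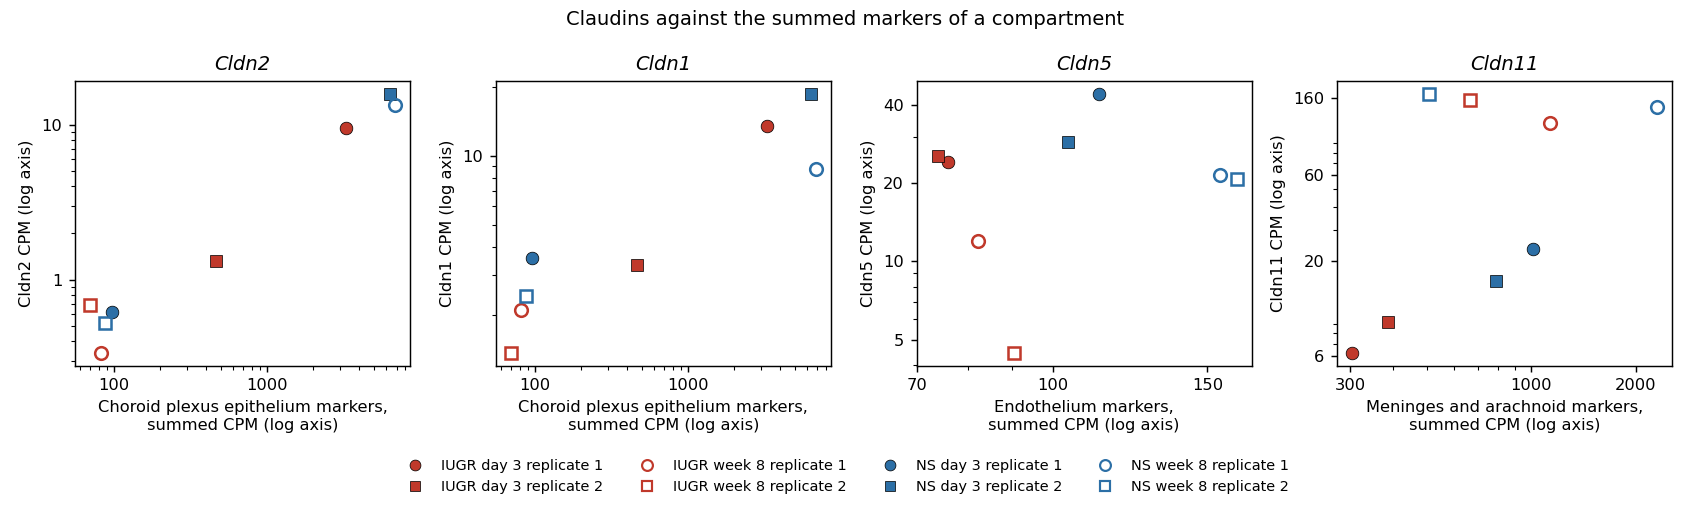
CPM of Cldn2, Cldn1, Cldn5 and Cldn11 (y axes, log) against the summed CPM of choroid plexus, endothelial or meningeal markers (x axes, log) in the 8 libraries; filled symbols are postnatal day 3, open symbols week 8, circles replicate 1 and squares replicate 2. Cldn2 and Cldn1 were highest in the 3 libraries with 3280 to 6840 CPM of choroid plexus markers, and the Cldn11 order at postnatal day 3 was that of the meningeal markers.

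Cldn2, the pore-forming claudin of the choroid plexus, differed more between libraries of one group than between groups. It had 9.52 and 1.32 CPM in IUGR libraries, against 0.619 and 15.8 CPM in NS libraries at postnatal day 3. At week 8 it had 0.338 and 0.686 CPM in IUGR libraries, against 13.4 and 0.527 CPM in NS libraries. These are 5 and 10 counts in IUGR and 175 and 10 in NS. Thus 3 of 8 libraries were high, IUGR replicate 1 and NS replicate 2 at postnatal day 3 and NS replicate 1 at week 8, and the NS libraries of each age differed 25.5-fold.

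Choroid plexus markers separated the same libraries. The sum of 13 of them was 3280 and 464 CPM in IUGR libraries, against 96.6 and 6380 CPM in NS libraries at postnatal day 3. Adult sums were 82 and 70.1 CPM in IUGR libraries, against 6840 and 87.6 CPM in NS libraries. Ttr, the transthyretin gene, ran from 22.2 to 6464 CPM over the 8 libraries. Cldn2 counts were 0.29% and 0.285% of the marker sum in IUGR libraries, against 0.641% and 0.248% in NS libraries at postnatal day 3. At week 8 they were 0.413% and 0.978% in IUGR libraries, against 0.196% and 0.601% in NS libraries. Cldn2 thus stayed between 0.196% and 0.978% of a marker sum that ran from 70.1 to 6840 CPM, in which Steap1 was at 0 in 1 library, and the 4 highest shares rest on 10 counts or fewer. Ttr took 31.7% to 94.8% of that sum. Without it, an alternative chosen after seeing the data, Cldn2 was 3.58% to 5.56% of the markers in the libraries with sums of 3280, 6380 and 6840 CPM. It was 0.896% to 2.62% in the others, so the ranges did not overlap.

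The fitted log2 fold change of Cldn2 depended on which libraries entered. It was -0.59 ± 1.69 at postnatal day 3 and -3.65 ± 2.02 at week 8 (edgeR, adjusted p = 1 for both). Without NS replicate 2 the first was 3.12, and without NS replicate 1 the second was 0.01. Between libraries of the same number the log2 ratio was 3.94 and -3.58 at postnatal day 3 and -5.31 and 0.38 at week 8, so no direction held. Cldn2 lies on the X chromosome (chrX:139800828-139811386), and at postnatal day 3 it was low in 1 and high in the other library with many Xist counts. All 13 choroid plexus markers were lower in IUGR at each age in the fit, with a median of -0.72 and -2.76, none called by edgeR. The part of the choroid plexus in the Cldn2 values was not tested.

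Cldn1, a claudin of the choroid plexus that skin and other epithelia also use, showed the same spread on a higher floor. It had 13.55 and 3.31 CPM in IUGR libraries, against 3.58 and 18.7 CPM in NS libraries at postnatal day 3. In week 8 libraries it had 2.096 and 1.37 CPM in IUGR, against 8.75 and 2.42 CPM in NS. Both IUGR libraries of week 8 were below both NS libraries, the nearest pair having 31 counts in IUGR and 46 in NS, with counting intervals of 1.42 to 2.98 CPM and 1.77 to 3.23 CPM that overlap. Its log2 fold change was -0.40 ± 0.99 at postnatal day 3 and -1.59 ± 1.06 at week 8 (edgeR, adjusted p = 1 for both), and the week 8 value was -0.42 without NS replicate 1. Between same-numbered libraries the log2 ratio was 1.92 and -2.50 at postnatal day 3 and -2.06 and -0.82 at week 8. In the 5 libraries with 70.1 to 464 CPM of choroid plexus markers Cldn1 had 1.37 to 3.58 CPM. This was 0.713% to 3.7% of that sum, against 0.128% to 0.413% in the other 3, a separation that rests on Ttr. Summed without Ttr, an alternative chosen after seeing the data, Cldn1 was 2.86% to 10.7% of the markers in these 5 libraries. It was 2.33% to 7.9% in the other 3, and these ranges overlap.

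Cldn3, another claudin of the choroid plexus whose place in brain endothelium is disputed, had the fewest counts. It had 3.00 and 2.09 CPM in IUGR libraries, against 2.96 and 4.62 CPM in NS libraries at postnatal day 3, and the groups overlapped. The week 8 libraries had 0 and 0 counts in IUGR, against 2 and 14 counts in NS. With 3 counts allowed over the IUGR group (0.102 CPM), the IUGR level would be 4.89-fold lower than the 0.5 CPM of the NS group. That ratio takes the pooled NS level as exact and leaves out the spread between libraries. NS replicate 1 had a counting interval of 0.0186 to 0.554 CPM, which overlaps 0 to 0.249 and 0 to 0.253 CPM in the IUGR libraries. The week 8 test gave an unadjusted p of 0.0104 and an adjusted p of 1 in edgeR, and without NS replicate 2 the NS group would hold only the 2 counts of replicate 1. The higher NS count at week 8 was in replicate 2, which had 87.6 CPM of choroid plexus markers, against 6840 CPM in replicate 1. The 3′ end of Cldn3 (chr5:134986214-134987472) overlaps an exon of the antisense gene Wbscr25, and strandedness of the counting is not given in the sources used here. The overlap is 40 of the 1259 bases of Cldn3, and reads within it cannot be told apart by gene.

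Cldn11, the claudin of myelin and arachnoid, was lower in IUGR libraries at postnatal day 3. It had 6.24 and 9.205 CPM in IUGR libraries, against 23.4 and 15.6 CPM in NS libraries. The groups did not overlap, and the nearest libraries had counting intervals of 7.86 to 10.7 CPM in IUGR and 13.8 to 17.5 CPM in NS. The log2 fold change was -1.34 ± 0.32 (edgeR, unadjusted p = 0.00433, adjusted p = 1), and -1.63 to -1.04 with each library left out in turn. DESeq2 on that age alone gave -1.35 ± 0.30 with an adjusted p of 0.00457, one of 65 calls among 15435 genes (0.421%). That call was not made by edgeR on the same 4 libraries (adjusted p = 0.449), nor by DESeq2 with the replicate number, which at this age is also the Xist split, as a term (adjusted p = 0.226). This is the contrast that was in view when the genes were listed.

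At week 8 Cldn11 had 117 and 157 CPM in IUGR libraries, against 144 and 169 CPM in NS libraries, and the groups overlapped. The log2 fold change was -0.11 ± 0.30 (edgeR, adjusted p = 1). Between libraries of the same number the log2 ratio was -1.91 and -0.76 at postnatal day 3 and -0.29 and -0.11 at week 8. The difference between the IUGR effects at the 2 ages was 1.23 ± 0.44 (edgeR interaction, unadjusted p = 0.0277, adjusted p = 1). It contains the postnatal day 3 contrast that was in view when the genes were listed, so it is a description too. The interaction test called 0 of 15999 genes (0%), with 82 genes at an unadjusted p under 0.05, and DESeq2 called 0, with 88.

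The markers of both tissues that use Cldn11 were set beside it. In neonates the sum of 12 meningeal markers was 305 and 387 CPM in IUGR libraries, against 1010 and 789 CPM in NS libraries, and all 12 were lower in IUGR, with a median log2 fold change of -0.90, none called by edgeR. Cldn11 counts were 2.05% and 2.38% of that sum in IUGR libraries, against 2.31% and 1.97% in NS libraries, so the ratio overlapped between groups. That ratio rests on Ptgds, the prostaglandin D synthase gene and the most abundant of the 12, which took 20.3% and 30.4% of the sum in IUGR libraries, against 53.9% and 45.8% in NS libraries. Summed without Ptgds, an alternative chosen after seeing the data, Cldn11 counts were 2.57% and 3.42% of the markers in IUGR libraries, against 5.01% and 3.64% in NS libraries, and the groups did not overlap. The sum of 12 myelin markers was 104 and 119 CPM in IUGR libraries, against 128 and 129 CPM in NS libraries, with 8 of 12 lower and a median of -0.15, and Opalin was at 0 in both NS libraries. Cldn11 counts were 5.99% and 7.72% of that sum in IUGR libraries, against 18.2% and 12.1% in NS libraries. The part of the meninges in the Cldn11 difference was not tested.

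At week 8 the myelin sum was 4710 and 5730 CPM in IUGR libraries, against 5670 and 5680 CPM in NS libraries. Cldn11 counts were 2.49% and 2.74% of it in IUGR libraries, against 2.53% and 2.97% in NS libraries. Meningeal markers ran from 668 to 1130 CPM in IUGR libraries and from 507 to 2310 CPM in NS libraries at that age. Cldn11 was 10.4% and 23.5% of their sum in IUGR libraries, against 6.24% and 33.3% in NS libraries. Ptgds took 79.7% to 84.5% of the meningeal sum at this age.

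**Figure D3:**
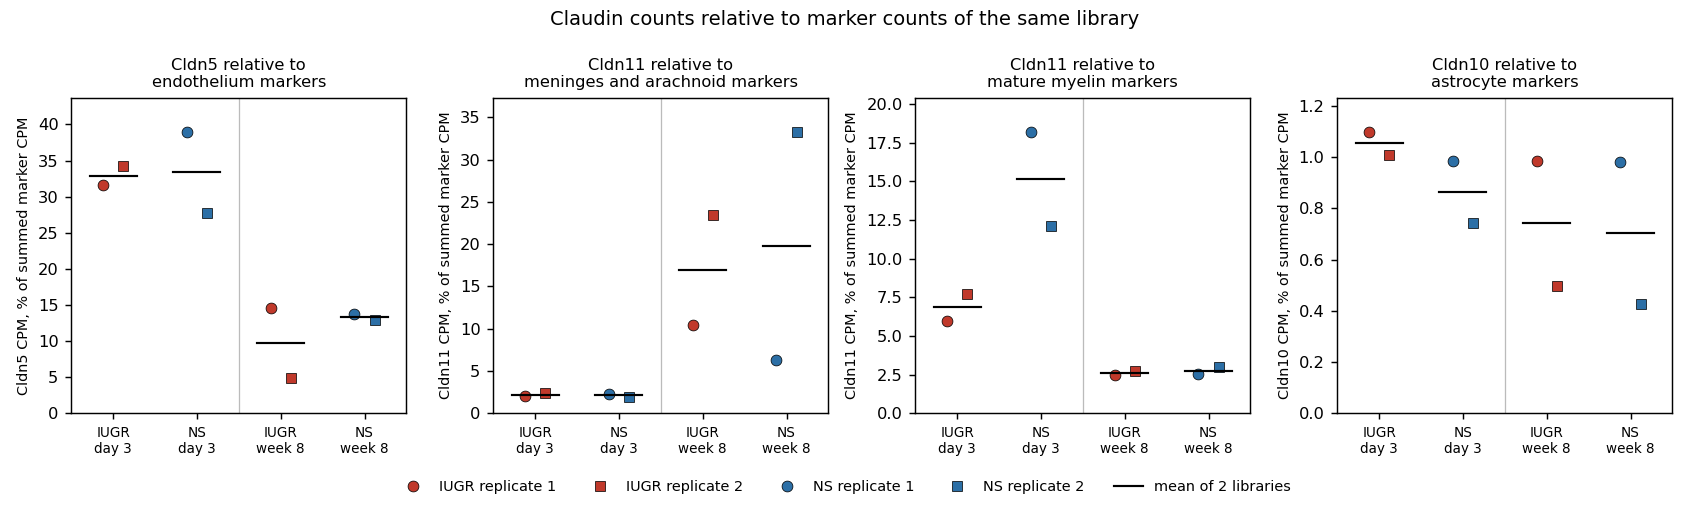
CPM of a claudin as a percent of the summed marker CPM of the same library (y axes, from 0), with IUGR left of NS at each age, circles for replicate 1, squares for replicate 2 and lines for the mean of 2 libraries. Cldn11 at postnatal day 3 was 1.97% to 2.38% of the meningeal sum in the 4 libraries, a sum of which Ptgds took 20.3% to 53.9%, and 5.99% to 18.2% of the myelin sum.

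Cldn10, the pore-forming claudin transcribed in astrocytes, did not separate IUGR from NS. It had 15.1 and 14.6 CPM in IUGR libraries, against 17.5 and 10.2 CPM in NS libraries at postnatal day 3. Among week 8 libraries it had 59.3 and 32.2 CPM in IUGR, against 60.6 and 29.3 CPM in NS. There replicate 1 of each group was high and replicate 2 low, as for the split in Rpph1. edgeR gave a log2 fold change of 0.10 ± 0.47 at postnatal day 3 and 0.11 ± 0.46 at week 8 (adjusted p = 1 for both), and between same-numbered libraries of week 8 the log2 ratio was -0.03 and 0.13. Astrocyte markers at week 8 summed to 6010 and 6450 CPM in IUGR libraries and to 6190 and 6860 CPM in NS libraries. Slc1a2, the main glutamate transporter gene of astrocytes, took 39.8% to 50% of that sum and was higher in replicate 2 of both groups. Of the 11 markers, 5 were higher in replicate 1 of both groups (Aqp4, Gfap, Aldh1l1, Acsbg1 and Aldoc) and 4 were lower. Cldn10 counts were 0.987% and 0.498% of that sum in IUGR libraries, against 0.98% and 0.428% in NS libraries.

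Cldn12 varied little, and no 2 replicates differed by more than 1.23-fold. It had 25.1 and 28.9 CPM in IUGR libraries, against 23.25 and 24.5 CPM in NS libraries at postnatal day 3. In adults it had 35.9 and 29.1 CPM in IUGR libraries, against 30.8 and 27.3 CPM in NS libraries. Fitted log2 fold changes were 0.18 ± 0.21 at postnatal day 3 and 0.24 ± 0.21 at week 8 (edgeR, adjusted p = 1 for both), and all 4 log2 ratios between same-numbered libraries were above 0, from 0.09 to 0.24. With library sizes scaled by TMM, the IUGR libraries of week 8 were also both above the NS libraries, as for 7.14% of all genes tested on that scale.

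From postnatal day 3 to week 8 the 8 genes went separate ways. Cldn11 rose in both IUGR and NS mice, and Cldn3 fell in IUGR mice, while no other gene of the list passed the test. edgeR called 16.8% of all genes in IUGR mice and 14.1% in NS mice. DESeq2 called 4581 and 4116 genes, against 2691 and 2263 by edgeR. Of the 8, edgeR called 2 in IUGR mice and 1 in NS mice, and DESeq2 called 4 and 3, adding Cldn10 in both, Cldn5 in IUGR mice and Cldn3 in NS mice.

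Cldn11 averaged 137 ± 28 CPM at week 8 and 7.72 ± 2.1 CPM at postnatal day 3 in IUGR mice (SD, n = 2 each). In NS mice it averaged 156 ± 17.7 CPM at week 8 and 19.5 ± 5.51 CPM at postnatal day 3 (SD, n = 2 each). The log2 fold change was 4.26 ± 0.35 in IUGR mice (edgeR, adjusted p = 0.00263) and 3.03 ± 0.33 in NS mice (edgeR, adjusted p = 0.00572). The call in NS mice was lost without NS replicate 1 of postnatal day 3 (adjusted p = 0.0621) or replicate 2 (0.0736), with values of 3.34 and 2.76. Of the 12 myelin markers, edgeR called 12 higher in IUGR mice and 11 in NS mice, with a median log2 fold change of 5.28 and 5.64.

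Cldn3 fell to 0 counts at week 8 in IUGR mice, against 91 counts over the 2 libraries of postnatal day 3 (edgeR, adjusted p = 0.0171). With 3 counts allowed over the week 8 group, its level would be 24.9-fold lower, with the pooled level of postnatal day 3 taken as exact. The call was lost without IUGR replicate 1 or 2 of postnatal day 3 (adjusted p = 0.105 and 0.0855), without NS replicate 1 or 2 of that age (0.0503 and 0.0518), and without IUGR replicate 2 of week 8 (0.0606). In NS mice it had 2 and 14 counts at week 8, against 43 and 81 at postnatal day 3, with a log2 fold change of -2.97 ± 0.77 (edgeR, adjusted p = 0.0594). All 4 week 8 libraries were below all 4 of postnatal day 3.

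Cldn10 had a log2 fold change of 1.73 ± 0.47 in IUGR mice (edgeR, adjusted p = 0.052) and 1.72 ± 0.48 in NS mice (edgeR, adjusted p = 0.0584), just short of the threshold, and every week 8 library was above every library of postnatal day 3. Of 11 astrocyte markers, edgeR called 9 higher at week 8 in IUGR mice and 7 in NS mice, with medians of 1.80 and 1.55. Cldn5 had -1.48 ± 0.46 in IUGR mice (edgeR, adjusted p = 0.0743) and -0.75 ± 0.45 in NS mice (edgeR, adjusted p = 0.296), while the endothelial markers had medians of 0.29 and 0.26. Cldn5 was 4.93% to 14.6% of their sum at week 8, against 27.8% to 39% at postnatal day 3, and these ranges do not overlap. Cldn12 had 0.37 ± 0.21 and 0.31 ± 0.21, and Ocln had 0.03 ± 0.37 and 0.08 ± 0.37, in IUGR and NS mice. For Cldn1 and Cldn2 the NS values were -0.99 ± 1.01 and -0.23 ± 1.69, and without NS replicate 2 of postnatal day 3, the neonatal NS library rich in choroid plexus markers, they were 0.65 and 3.48.

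**Figure D4:**
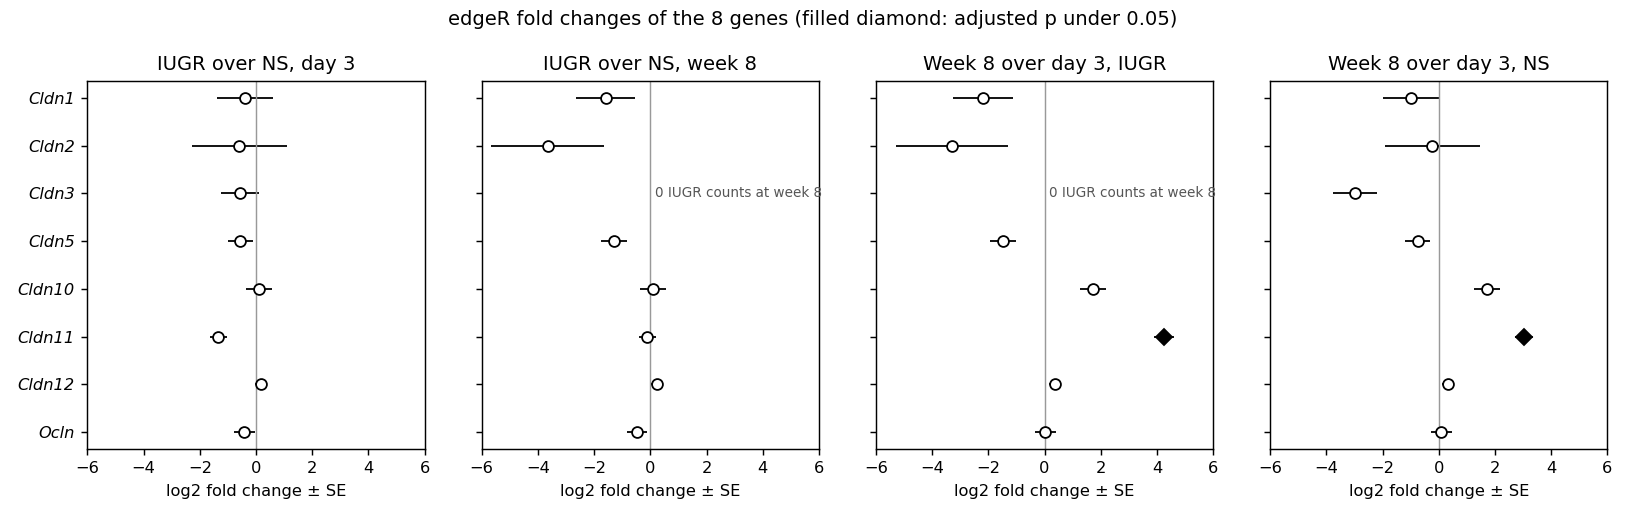
edgeR log2 fold change ± SE (x axis, same range in each panel) of the 8 genes for IUGR over NS at each age and for week 8 over postnatal day 3 in each group; filled diamonds had an adjusted p under 0.05. Cldn3 is not drawn where the IUGR week 8 libraries had 0 counts, and Cldn11 had filled diamonds in both developmental panels.

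Compared with each other per kilobase (kb) of gene length, the genes changed order between the ages. At postnatal day 3 Cldn5 had the highest level, 17.4 CPM per kb in IUGR libraries and 25.7 in NS libraries. In IUGR libraries Cldn10 followed at 10.3 and Cldn12 at 6.62 CPM per kb, with ranges that did not overlap their neighbours. Below them Cldn11 (4.12), Ocln (3.54), Cldn1 (2.60), Cldn3 (2.02) and Cldn2 (1.77 CPM per kb) each overlapped the next. In NS libraries of that age Cldn11 was second at 10.4 CPM per kb and overlapped Cldn10 at 9.60.

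At week 8 Cldn11 led with 73.3 CPM per kb in IUGR libraries and 83.5 in NS libraries, and Cldn10 was second with 31.6 and 31.1. Cldn5 followed in NS libraries at 14.9 CPM per kb, above Cldn12 at 7.13 without overlap. In IUGR libraries it had 5.82 CPM per kb and overlapped Cldn12 at 7.98 and Ocln at 3.37. Cldn3 was last in both, at 0 in IUGR and 0.353 CPM per kb in NS.

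**Figure D5:**
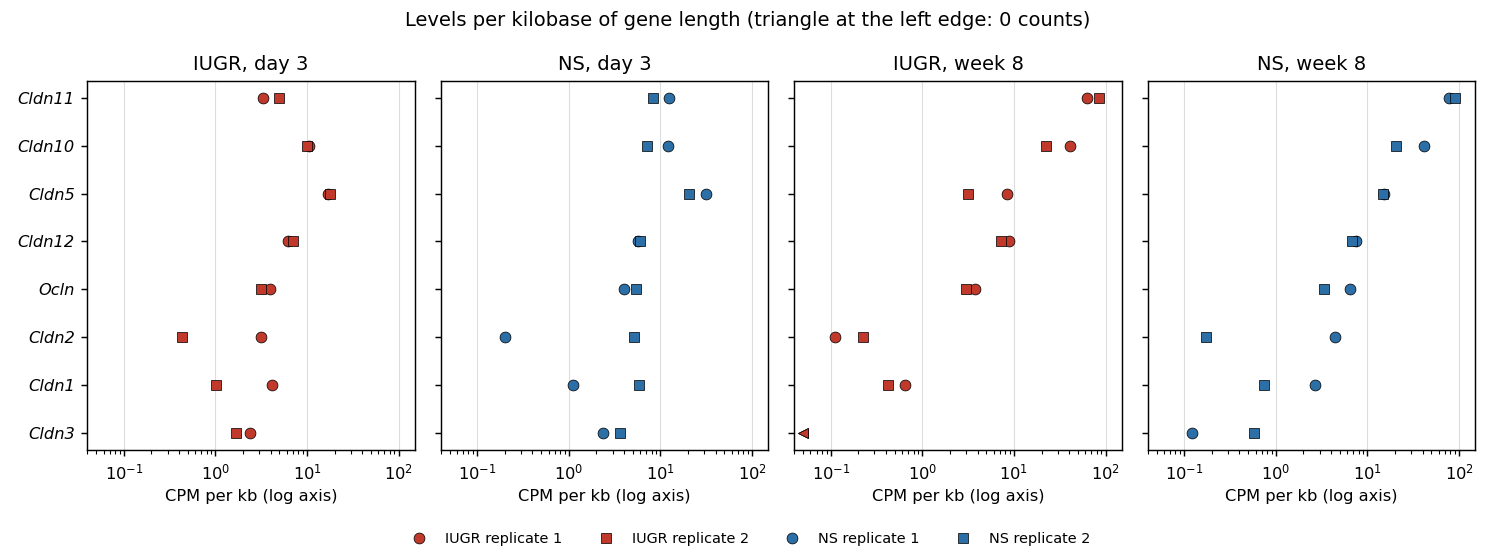
CPM per kb of gene length (x axis, log) of each gene (rows) in the libraries of the 4 groups, IUGR left of NS at each age, circles for replicate 1 and squares for replicate 2; a triangle at the left edge stands for 0 counts. Cldn5 led at postnatal day 3 and Cldn11 at week 8.

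Pearson's r of log2(CPM + 1), which mixes age, depth and tissue share and is given with no test, ranked genes by similarity over the 8 libraries. Symbols patterned like unnamed gene models, mitochondrial genes, pseudogenes or small RNAs were left out, and with them all symbols starting with Rn. The genes named were the most similar among the remaining 13525 averaging at least 1 CPM. For Cldn2 they were Col4a3 (r = 0.991), Kcne2 (0.987), a choroid plexus potassium channel subunit, and Tmem72 (0.987). For Cldn1 they were Col9a3 (0.989), Aqp1 (0.985), the water channel of the choroid plexus, and Rbm47 (0.985). For Ocln the first was Cgnl1 (0.984), the gene of paracingulin, another junction protein. For Cldn11 they were Tmco3 (0.996), Lcat (0.995) and Tnfaip8l3 (0.994), and for Cldn5 Zscan20 (0.980), Col5a1 (0.976) and Col16a1 (0.971). For Cldn10 the first was Ddo (0.996), for Cldn3 Ppp1r18 (0.987) and for Cldn12 Fahd2a (0.966).

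After the mean of each age was subtracted, Cldn2 was again nearest to Col4a3 (0.992), followed by Aqp1 (0.990) and Kcne2 (0.987), and Cldn1 to Car14 (0.989) and Slc4a5 (0.987), a choroid plexus bicarbonate transporter. Ocln was nearest to Mfsd7c and Cgnl1 (both 0.992), and Cldn5 to Notum (0.982). Among the 8 genes themselves, on this scale, Cldn1 went with Cldn2 (r = 0.97) and with Ocln (0.85), and Cldn2 with Ocln (0.83). Cldn10 and Cldn11 had r = 0.84 over all libraries and -0.19 within ages.

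Of the 27 other genes whose symbol starts with Cldn, 7 had no count, 15 averaged under 1 CPM at both ages, and Cldn14, Cldn19, Cldn22, Cldn34c1 and Cldnd1 averaged at least 1 CPM at an age. Cldnd1, a claudin domain gene and the highest, had 27.9 and 26.3 CPM in IUGR libraries, against 26.1 and 25.9 CPM in NS libraries at postnatal day 3. At week 8 it had 32.9 and 66.9 CPM in IUGR libraries, against 26.3 and 61.0 CPM in NS libraries, high in replicate 2 of each group. None of the 9 tested was called by edgeR in any of the 5 comparisons.

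Among 26 other tight junction genes (scaffolds, junctional adhesion molecules, angulins and polarity proteins), 12 were higher and 14 lower in IUGR at postnatal day 3, with a median log2 fold change of -0.03. At week 8 9 were higher and 17 lower, with a median of -0.11, and edgeR called none at either age. Among those averaging at least 1 CPM at the age in question, the largest values at week 8 were for Cgnl1 (-1.19 ± 0.75), Lsr, the angulin of tricellular junctions (-0.82 ± 0.40), Cgn, the gene of cingulin (-0.71 ± 0.25), and Esam, an endothelial adhesion molecule (-0.67 ± 0.34). In neonates they were for Cgnl1 (-0.80 ± 0.74), Marveld2, the gene of tricellulin (0.73 ± 0.48), Ildr2 (-0.46 ± 0.26) and Pard6b (0.36 ± 0.39).

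Between the ages edgeR called 4 of these 26 genes in each group (15.4%), near the 16.8% of all genes in IUGR mice and 14.1% in NS mice. Cxadr, the coxsackievirus and adenovirus receptor of junctions, fell by 4.12 ± 0.22 in IUGR mice (adjusted p = 0.00121) and by 4.10 ± 0.22 in NS mice (adjusted p = 0.00163) on the log2 scale. Cgn fell by 1.85 in IUGR mice (edgeR, adjusted p = 0.00825) and by 1.29 in NS mice (0.0215). Mpdz, a scaffold protein, rose by 0.94 ± 0.22 in IUGR mice (edgeR, adjusted p = 0.0332) and by 1.02 ± 0.22 in NS mice (0.0301). Ildr2, an angulin, rose in IUGR mice (1.22 ± 0.27, edgeR, adjusted p = 0.0276), where Jam3 had 0.57 ± 0.21. Jam3, a junctional adhesion molecule, rose in NS mice (0.99 ± 0.21, edgeR, adjusted p = 0.0291), where Ildr2 had 0.69 ± 0.27. The medians of the 26 genes were -0.30 and -0.05.

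Of 12 genes of blood-brain barrier maturation (transporters, Wnt targets and endothelial transcription factors), 4 were higher and 8 lower in IUGR at postnatal day 3, with a median log2 fold change of -0.20. At week 8 3 were higher and 9 lower, with a median of -0.43, and edgeR called none at either age. At week 8 Sox17, an endothelial transcription factor, had -1.54 ± 0.61, the organic anion transporters Slco1a4 and Slco1c1 had -1.02 ± 0.69 and -0.78 ± 0.30, and Plvap, a marker of fenestrated endothelium, had -0.78 ± 0.54. In neonates the efflux pump gene Abcb1a had -0.81 ± 0.62 and Lef1, a factor of Wnt signalling, had 0.68 ± 0.72. Slc2a1, the glucose transporter of the barrier, rose between the ages in IUGR mice (2.26 ± 0.42, edgeR, adjusted p = 0.0172) and in NS mice (1.81 ± 0.41, edgeR, adjusted p = 0.0347), and was the only one of the 12 called by edgeR in either group (8.33%), against 16.8% of all genes in IUGR mice and 14.1% in NS mice.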

How the data were processed

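RNA of 8 hippocampal libraries was measured by RNA-seq. For each age the authors deposited a table of raw counts with the length of each of 24421 genes, and all tests used the counts. They also deposited a normalized signal, the count divided by 1 size factor per library, which was only checked against the counts. Per the submitters' processing notes, build mm10 was used, with featureCounts 1.6.1, DESeq2 1.26.0, HISAT2 2.1.0, SAMtools 1.9 and cutadapt 1.16. The annotation, strandedness and treatment of multiply matching reads are not given there.

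CPM is the count over the library total. All 8 libraries were fitted as 4 group means in edgeR 4.0.16 (R 4.3.3) with TMM scaling, kept 15999 genes after filterByExpr, and were tested with the quasi-likelihood F test and Benjamini-Hochberg adjustment over all genes, at an adjusted p under 0.05. The SE is the log2 fold change over the square root of F. Counting intervals are exact 95% Poisson intervals bounded on both sides, and the 3-count floor bounds a count of 0 from above only. The interval of a 0 count therefore reaches higher than the floor, and both cover counting error only. Alternatives were DESeq2 size factors, no filter, a mean of at least 10 counts, DESeq2 1.42.0, the replicate number as a block, each age alone and each library left out. The test script was tested on simulated data. Positions are from GENCODE M21 (GRCm38) and sequences from RefSeq (GRCm38.p6).

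The genes described, the marker lists and the other gene lists were chosen with earlier results of these data known. All 8 genes are given in every library, other Cldn genes from 1 CPM at either age, up to 4 genes of each other list by the largest absolute log2 fold change from 1 CPM, with the called ones, and the 3 genes most alike in pattern, of which some are named. Esam is in both the endothelial and the tight junction list. The groups share replicate numbers 1 and 2. Over 14637 genes, differences between the replicates correlated between IUGR and NS at -0.0816 at postnatal day 3 and 0.862 at week 8. At week 8 the replicates of both groups thus differed alike. The labels do not say what the numbers stand for. The main fit therefore left them out, and they were a block only as an alternative.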

Additional observations from a re-analysis of the deposited data

How the results depend on the processing

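Of 245 fold changes of the 8 genes under settings that keep all libraries, 231 kept their direction and side of the threshold, 10 passed it newly and 4 changed sign. DESeq2 on postnatal day 3 alone called 1 of the 8 genes (Cldn11), against 0 by edgeR. Genes called between the ages in NS mice were 3 with DESeq2, against 1, and 0 to 3 with 1 library left out. In IUGR mice they were 4 with DESeq2, against 2, and 1 to 3 with 1 library left out. Over all 15999 genes tested, DESeq2 also called more, 4116 in NS mice and 4581 in IUGR mice, against 2263 and 2691 by edgeR. With TMM-scaled library sizes, 1 gene (Cldn12) lay above NS in both IUGR libraries at week 8, against 0, and the same held for 7.14% of all genes, against 4.08%. With Rpph1 left out of the totals, Cldn3 also lay below NS at postnatal day 3, 4 genes against 3, as did 19.7% of all genes, against 16.6%. The cause of these moves was not tested.

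Replicate differences were alike in IUGR and NS at week 8 (correlation 0.862) but not at postnatal day 3 (-0.0816). The labels do not say what the replicate numbers pair. Used as a block in edgeR, they gave 4 and 3 of the 8 genes called between the ages in IUGR and NS mice. The interaction was then -0.017 for Cldn10 and the change with age in NS 0.74 for Cldn2, both with their sign turned. For Ocln the interaction was 0, without a sign. DESeq2 on postnatal day 3 alone with the block gave Cldn2 0.16, and Cldn11 an adjusted p of 0.226, against 0.00457 without it and 0.449 in edgeR on that age alone. The block changed no IUGR against NS call of the 8 genes in edgeR. Over all genes, calls between the ages were 5550 and 5049 with the block in IUGR and NS mice, 4581 and 4116 with DESeq2, and 92 to 4067 and 51 to 3801 with 1 library left out, against 2691 and 2263. DESeq2 called 65 genes on postnatal day 3 alone (13 with the block), and at week 8 1 gene, 1 on that age alone and 3 with the block, against 0 by edgeR.

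With each library left out in turn, 274 of 320 fold changes were unmoved in direction and call and 32 changed sign. At postnatal day 3 the log2 fold change ran from -1.79 to 1.24 for Cldn1, -2.66 to 3.12 for Cldn2 and -0.25 to 0.52 for Cldn10. At week 8 it ran from -4.60 to 0.013 for Cldn2, -0.41 to 0.70 for Cldn10, -0.34 to 0.07 for Cldn11 and -0.86 to 0.051 for Ocln. The interaction ran from -2.83 to 0.19 for Cldn1, -6.77 to 0.63 for Cldn2, -0.49 to 0.63 for Cldn10, -0.082 to 0.20 for Cldn12 and -0.44 to 0.50 for Ocln. The change with age ran from -2.17 to 0.65 for Cldn1, -3.92 to 3.48 for Cldn2 and -0.46 to 0.47 for Ocln in NS mice, and from -0.14 to 0.23 for Ocln in IUGR mice. Where 1 library remained in a group, it was taken to vary as the other groups do. Cldn3 was removed by the filter when week 8 was fitted alone, so that setting gave it no value. Depth limits Cldn2 and Cldn3 at week 8, with 14 counts or fewer in all libraries but NS replicate 1 for Cldn2.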
